A study of Luscinia megarhynchos and Luscinia luscinia with 4 samples.

Results

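LOC101813248 and LOC101814235 are the *hydin* like genes of the germline-restricted chromosome (GRC) of nightingales. They are the 2 rows of the deposited table of 799 genes that carry these symbols, 1 row each, and were chosen because the study counts them among the genes with a complete coding region on the GRC of both species. The table was made from mRNA of 4 libraries, 1 each from a *L. luscinia* testis, a *L. luscinia* ovary, a *L. megarhynchos* testis and a *L. megarhynchos* ovary. *L. luscinia* is the thrush nightingale and *L. megarhynchos* the common nightingale, and the birds were adults caught in the wild in the breeding season. Each library came from a different bird, no bird was treated, and no group had a second library. The spread between birds could therefore not be measured and no test between groups was possible. All intervals below are 95% intervals that cover counting error in single libraries.

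Hydrocephalus-inducing protein, from which the *hydin* genes take their name, is a very large protein of the central apparatus, the structure around the central pair of microtubules in motile cilia and in the sperm flagellum. In mice and humans the loss of the protein impairs the beating of cilia, and in mice it leads to hydrocephalus. The GRC is present in germ cells of songbirds and absent from their somatic cells. It is passed on mainly through the mother and is usually eliminated during the formation of sperm. The A chromosomes are the ordinary chromosomes, present in all cells. The table holds the flycatcher symbols alone, so the name *hydin* like is the study's and could not be checked against sequence here. Both genes have short coding sequences, too short for a whole protein of that size. Complete is used below for the study's class of genes with nearly all of the coding region found. It thus refers to these short gene models and not to a whole *hydin* gene or an intact reading frame.

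The values are FPKM, the fragments per kilobase of gene, scaled to the sequencing depth of the library, and the reads behind them could be recovered for 192 of the 799 genes, both *hydin* like genes included. The libraries had been scaled to 49987547 reads (testis) and 36650197 reads (ovary) in *L. luscinia*, and to 35404629 (testis) and 57644189 (ovary) in *L. megarhynchos*. Of the 799 genes, 16.9% had an FPKM above 0 in testis and 17.5% in ovary of *L. luscinia*, against 22.9% and 24.8% in the same tissues of *L. megarhynchos*. The shares were larger among the 192 genes, where 71 (testis) and 81 (ovary) were above 0 in *L. luscinia*. In *L. megarhynchos* 86 (testis) and 98 (ovary) of them were. The table covers reads assigned to the GRC assemblies alone. The study counts those same 192 genes as GRC genes, and the other rows are not in its list. Of 63 marker genes of gonadal cell types the table held 5. No defining marker of oocytes, of ovarian somatic cells or of multiciliated epithelium was among them. The labelled tissues could thus not be checked from these data. The study used only reads that mapped uniquely to GRC exons in an alignment that included the A chromosomes. The study warns that GRC reads matching the A chromosomes equally well are left out as ambiguous. How many reads of the *hydin* like genes came from A-chromosomal copies, or were lost in this way, was not tested.

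LOC101813248 (protein XP_005052783.1 of the collared flycatcher) was expressed in every library, far more in the testis than in the ovary of each species and more in *L. luscinia* than in *L. megarhynchos* in each tissue. In *L. luscinia* it had an FPKM of 71.9 in testis (4281 reads) and 4.12 in ovary (180 reads). In *L. megarhynchos* it had an FPKM of 8.23 in testis (347 reads) and 0.175 in ovary (12 reads). The *L. luscinia* testis stood highest, the *L. megarhynchos* testis and the *L. luscinia* ovary lay in between, and the *L. megarhynchos* ovary was lowest. LOC101813248 was 1 of 41 genes above 0 in all 4 libraries, a pattern found for 5.13% of the 799 genes. The study reports expression in both tissues of both species for a larger share of its own GRC genes. It reports the same for most of the complete genes shared by the species, so the pattern is not particular to LOC101813248.

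The counting intervals of LOC101813248 did not overlap between any neighbours in this order. For the testes they ran from an FPKM of 69.8 to 74.1 in *L. luscinia* and from 7.39 to 9.14 in *L. megarhynchos*, and for the ovaries from 3.54 to 4.77 in *L. luscinia* and from 0.0903 to 0.305 in *L. megarhynchos* (exact Poisson). The closest neighbours were the *L. megarhynchos* testis and the *L. luscinia* ovary, whose FPKM differed 2.0-fold (exact interval 1.66 to 2.40). Whether birds of a group differ by as much is unknown with 1 bird each.

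**Figure D1:**
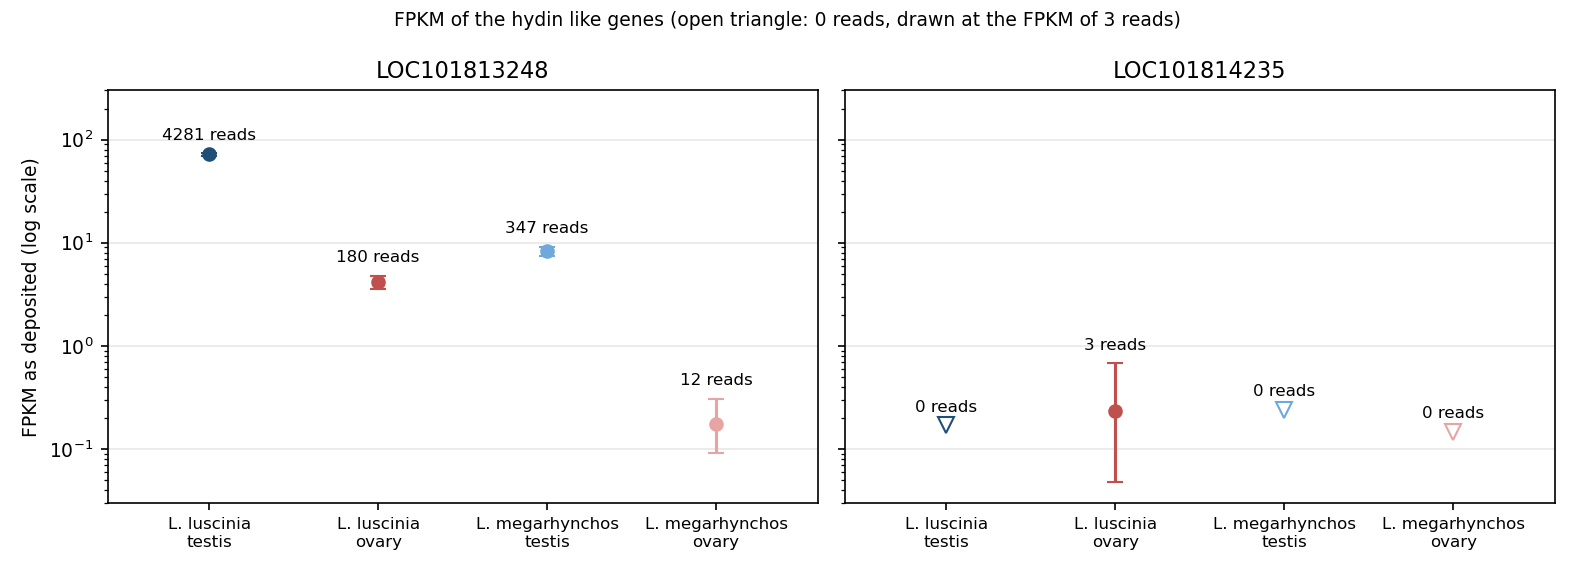
FPKM as deposited (log scale) of LOC101813248 (left) and LOC101814235 (right) in each of the 4 libraries, with exact Poisson 95% intervals as bars and the reads beside each point. Open triangles mark libraries with 0 reads, drawn at the FPKM that 3 reads would give. LOC101813248 falls between an FPKM of 0.175 and 71.9, while LOC101814235 has 1 value above 0, in the ovary of *L. luscinia*.

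In the *L. luscinia* testis the gene had the highest FPKM of all 799 genes. The next was LOC101813524, with an FPKM of 48.3 but more reads (8034 against 4281). LOC101813248 ranked 4 in the *L. megarhynchos* testis, between LOC101812416 (11.6) and LOC101813524 (7.70), and 6 in the *L. luscinia* ovary, between CPEB1 (11.8), an RNA-binding regulator of translation, and CHRAC1 (3.85), a subunit of a chromatin remodelling complex. CPEB1 ranked 5 there, while the study places CPEB1 at rank 6 in the ovary of both species. In the *L. megarhynchos* ovary LOC101813248 ranked 47, between LOC107604319 (0.178) and LOC101816937 (0.169). The ranks of other genes depend on how a partly assembled gene is scaled. The deposited FPKM is multiplied by the adjusted share of the coding region found on the GRC. The values of the *hydin* like genes themselves are the same with and without this adjusted share. This does not mean that every coding base of LOC101814235 was found, since rates per base found and per coding base differ below. With reads divided by the coding length times that share, LOC101813248 ranked 4 (testis) and 9 (ovary) of the 192 genes in *L. luscinia*, and 13 (testis) and 65 (ovary) in *L. megarhynchos*.

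LOC101813248 also took a different part of each library's GRC signal. It held 16.5% of the 25975 reads on the 192 genes in the *L. luscinia* testis (exact Clopper-Pearson interval 16.0% to 16.9%) and 1.69% of 10627 reads in the *L. luscinia* ovary (1.46% to 1.96%). In *L. megarhynchos* the shares were 3.85% of 9009 reads in the testis (3.46% to 4.27%) and 0.0240% of 50088 reads in the ovary (0.0124% to 0.0418%). The gene was thus a large source of GRC reads in the *L. luscinia* testis, though not the largest, since LOC101813524 had 8034 reads there. In the *L. megarhynchos* ovary it was a minor source. A share moves with the other genes of its library as well.

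The comparison of tissues within a species uses 1 GRC assembly and needs no assumption on gene length. In *L. luscinia* the FPKM of LOC101813248 was 71.9 in testis and 4.12 in ovary, 17.4-fold higher in testis (exact interval 15.0 to 20.4). In *L. megarhynchos* it was 8.23 in testis and 0.175 in ovary, 47.1-fold higher in testis (26.6 to 92.0). Of the 95 genes above 0 in both *L. luscinia* tissues, 42.1% were at least 2-fold higher in testis, and of the 114 such genes in *L. megarhynchos* 48.2% were. The median ratio of testis to ovary was 1.47 across these genes in *L. luscinia* and 1.63 in *L. megarhynchos*. The ratio of LOC101813248 was the 18th highest in *L. luscinia* and the 18th highest in *L. megarhynchos*. Genes above 0 in 1 tissue alone have no ratio. In *L. luscinia* 40 were above 0 in testis alone and 45 in ovary alone, and in *L. megarhynchos* 69 in testis alone and 84 in ovary alone. The size of the tissue difference of LOC101813248 moved with the scaling by more than its counting interval. Scaled to the summed FPKM of each library, it was 8.87-fold in *L. luscinia* and 157-fold in *L. megarhynchos*, and with 1 added to each FPKM it was 14.2-fold and 7.86-fold in these species. In such bulk tissue, fewer cells that carry the GRC and less RNA per cell cannot be told apart. For this reason the study advises against comparing FPKM between its data sets. It also describes 1 GRC copy in male germ cells and 2 in female ones, with exceptions. Testis and ovary also came from different birds, so tissue and bird cannot be told apart either.

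The tissue ratio of LOC101813248 was smaller in *L. luscinia* than in *L. megarhynchos* by a factor of 0.370 (exact conditional interval 0.186 to 0.672). The interval does not include 1, but its width comes mainly from the 12 reads of the *L. megarhynchos* ovary. With 1 added to each FPKM, the factor turned to 1.81.

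Between species, LOC101813248 was higher in *L. luscinia* in both tissues. Each species has its own GRC assembly, and in the study that of *L. megarhynchos* is more fragmented and holds more merged duplicates. The species were also caught in different regions of Poland. Species, region and assembly cannot be told apart in these ratios. In the testes the FPKM was 71.9 in *L. luscinia* and 8.23 in *L. megarhynchos*, an 8.74-fold difference (exact interval 7.83 to 9.78). In the ovaries it was 4.12 in *L. luscinia* and 0.175 in *L. megarhynchos*, a 23.6-fold difference (13.2 to 46.5). A difference of 2-fold or more toward *L. luscinia* was found for 42.4% of the 59 genes above 0 in both testes, and LOC101813248 ranked 12 among their ratios. In the ovaries it was found for 20.6% of 63 genes, and its ratio ranked 2. The median ratio of *L. luscinia* to *L. megarhynchos* was 0.95 in testes and 0.513 in ovaries. Scaled by this median, the ovary difference of LOC101813248 was 46.0-fold. The deposited values of other genes are multiplied by the share of each gene found on the GRC of the same species. These percentages, ranks and medians, and the values scaled by them, therefore depend on the assemblies as well. The summed FPKM of the ovary libraries was 124.3 in *L. luscinia* and 505.9 in *L. megarhynchos*. Scaled to these sums, the ovary difference was 96.1-fold and the testis difference 5.42-fold. The study advises against comparing FPKM between its data sets, because the share of sequenced cells with a GRC is unknown. Levels in different libraries can thus not be given per GRC. The study also found the class of shared genes that holds the *hydin* like genes often duplicated, CPEB1 excepted. Their copy number differed between the species and between birds, so the levels are not per gene copy either.

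**Figure D2:**
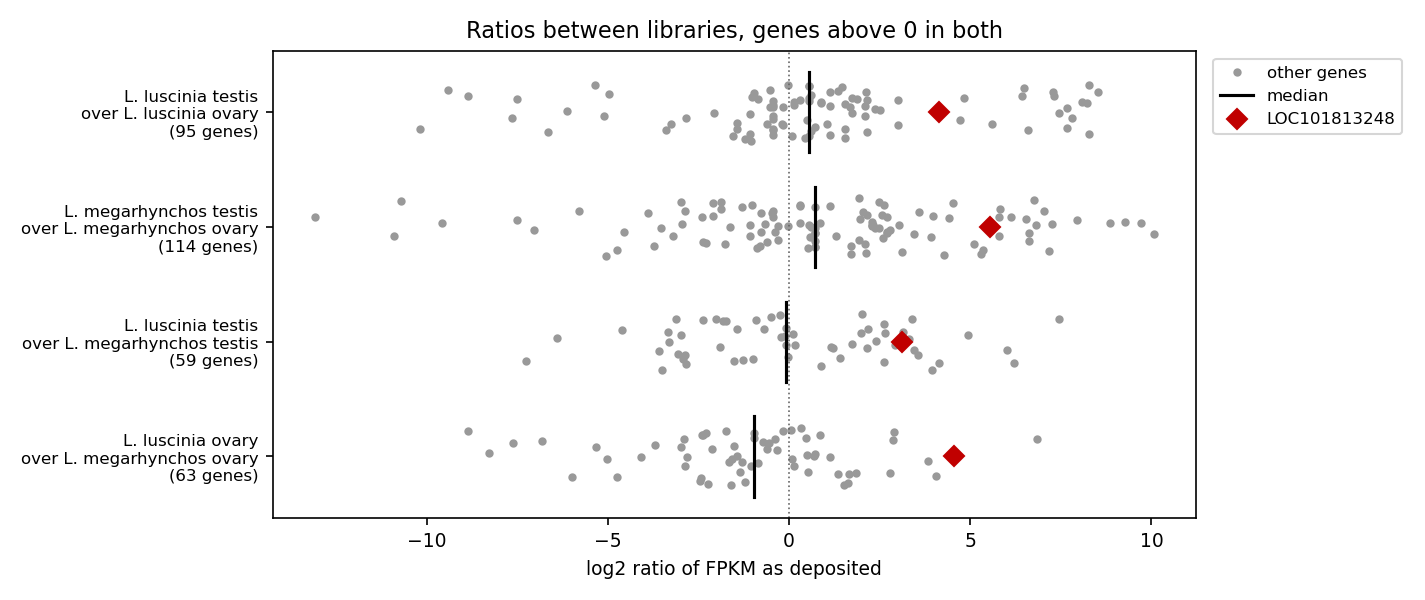
log2 ratios of FPKM as deposited for genes above 0 in both libraries of a comparison (grey points, 59 to 114 genes), with their median (black line) and LOC101813248 (red diamond). The diamond lies right of the median in all 4 comparisons, and only 1 gene lies right of it between the ovaries.

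LOC101814235 (protein XP_005052786.1), the second *hydin* like gene, had almost no reads. In *L. luscinia* its FPKM was 0 in testis and 0.231 in ovary, and in *L. megarhynchos* it was 0 in both tissues. The single value above 0 rested on 3 reads (exact Poisson interval 0.619 to 8.77 reads, an FPKM of 0.0477 to 0.676). A count of 0 was taken to allow up to 3 reads. This is an FPKM of 0.170 in the *L. luscinia* testis, 0.239 in testis and 0.147 in ovary of *L. megarhynchos*. The exact Poisson interval of a count of 0 ends higher, at 3.69 reads, so limits and fold bounds taken from 3 reads are less strict. The value in the *L. luscinia* ovary lay above the limits of the *L. luscinia* testis and the *L. megarhynchos* ovary and below that of the *L. megarhynchos* testis. Its interval included all 3 limits, so that a difference from these libraries was not detectable at this depth. Of the 799 genes, 3.38% were above 0 in that ovary and in no other library.

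The coding sequences of these genes stand next to each other in the flycatcher annotation, as numbers 16269 for LOC101814235 and 16270 for LOC101813248 on the same chromosome. Their uniquely mapped reads per coding base differed by far more than counting error in 3 of 4 libraries. At the rate per coding base of LOC101813248, LOC101814235 would have had 1272 reads in the *L. luscinia* testis, and none was found. With 3 reads as the limit of a count of 0, the rate of LOC101813248 was at least 424-fold higher there. Per base found on the GRC, in place of the coding length, the bound was 350-fold. In the *L. luscinia* ovary the same reckoning gave 53.5 reads and 3 were found, a rate 17.8-fold higher for LOC101813248 (exact interval 6.01 to 87.3). In the *L. megarhynchos* testis the reckoning per coding base gave 103 reads and none was found, a rate at least 34.4-fold higher (28.4-fold per base found). In the *L. megarhynchos* ovary, where LOC101813248 itself had 12 reads, it gave 3.57 reads, so the absence of reads from LOC101814235 was not informative at this depth. A short coding sequence also loses reads that cross its ends, and reads that match another sequence equally well are not counted. The effect of these losses on LOC101814235 was not tested, so a low rate need not mean low expression.

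**Figure D3:**
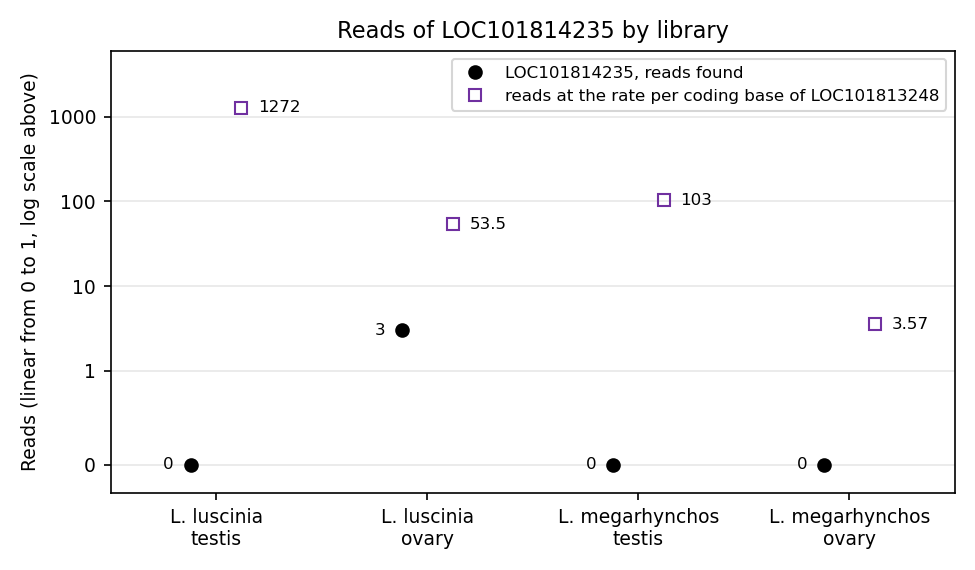
Reads of LOC101814235 in each library (filled circles) and the reads it would have had at the rate per coding base of LOC101813248 in the same library (open squares), on an axis that is linear from 0 to 1 and logarithmic above. LOC101814235 had 0, 3, 0 and 0 reads, against 1272, 53.5, 103 and 3.57 at an equal rate.

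Further rows of the table lay beside the *hydin* like genes in the flycatcher annotation, within 10 coding sequences on the same chromosome. LOC101811078 (number 16268), for which the table gives no function, had an FPKM of 3.90 in the *L. luscinia* testis (425 reads) and 0.0250 in the *L. luscinia* ovary (2 reads), a 156-fold higher value in testis (exact interval 42.9 to 1291). It was at 0 in both *L. megarhynchos* libraries and was not found on the *L. megarhynchos* GRC assembly. In *L. luscinia* it was therefore higher in testis like LOC101813248, at a lower level. Only part of this gene is on the GRC, and with its adjusted length its value was 18.5 in the *L. luscinia* testis and 0.119 in the *L. luscinia* ovary. LOC101814042 (number 16271) was at 0 in both *L. luscinia* libraries. In *L. megarhynchos* it had an FPKM of 0.00195 in testis and 0.000285 in ovary, 6.84-fold higher in testis. The smallest whole read numbers in that ratio are 21 and 5, so that even these low values rest on several reads. LOC101814042 is not among the 192 genes that the study counts as GRC genes. LOC101814235 thus lay between 2 coding sequences with reads in the *L. luscinia* testis, LOC101811078 and LOC101813248.

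Few listed genes of motile cilia were in the table. Of 224 listed genes of the axoneme, its assembly, intraflagellar transport, ciliary transcription and the sperm flagellum, 5 were in the table. The share of all annotated genes that the table holds was not computed, and an exact match of symbols misses genes with a LOC symbol. The low number is therefore not a result about cilium genes. SPAG6, a protein of the central apparatus like HYDIN, DNAH5, a heavy chain of the outer dynein arm, and KIF3B, a motor of intraflagellar transport, had an FPKM of 0 in all 4 libraries. Most of the 799 genes were at 0 in any given library, with 16.9% to 24.8% above 0. RSPH14, a radial spoke head homologue, had an FPKM of 0.0281 in the *L. luscinia* testis and 0 elsewhere. Like SPAG6, DNAH5 and KIF3B, it is not among the 192 genes that the study counts as GRC genes. ZMYND10, a factor needed for the assembly of dynein arms, had an FPKM of 0.0627 (16 reads) in the *L. megarhynchos* ovary and 0 elsewhere, and was not found on the *L. luscinia* GRC assembly. None of the 5 was therefore above 0 in both tissues of a species. Of all 799 genes, only 95 were in *L. luscinia* and 114 in *L. megarhynchos*, so this is not a result about cilium genes. In the *L. megarhynchos* ovary ZMYND10 had more reads than LOC101813248 (16 against 12), and with its adjusted length its value was 0.828, against 0.175 for LOC101813248, so that the lower deposited FPKM of ZMYND10 rests on the scaling of a partly assembled gene.

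The pattern of LOC101813248 over the 4 libraries was compared with that of the other 40 genes above 0 in every library, by the root mean square distance of log2 FPKM after each gene was centred on its own mean. The median distance was 3.17. LOC101822191 came nearest, at 1.33, with an FPKM of 7.40 in testis and 0.0360 in ovary of *L. luscinia*, and 0.486 in testis and 0.00493 in ovary of *L. megarhynchos*. It too was highest in the *L. luscinia* testis and lowest in the *L. megarhynchos* ovary. LOC101817770 (1.54), LOC107603742 (1.80), LOC107603907 (1.84) and LOC107604299 (1.98) followed. All 5 were higher in testis than in ovary in each species, by 3.30 to 298 times in *L. luscinia* and 6.51 to 143 times in *L. megarhynchos*. They were picked for closeness over these same 4 values, so a shared direction follows largely from the choice. LOC107604299, one of the *ervk-25* like genes, was the only one with a lower value in the *L. luscinia* testis (1.44) than in the *L. megarhynchos* testis (2.71). Several of these points rest on few reads, since LOC101817770 had 1 read in each ovary. The distance is computed on 4 values and describes these libraries only.

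The ovary of *L. luscinia* set LOC101813248 apart from most of these genes. It had 4.12 FPKM in this ovary, while the 4 nearest genes had between 0.010 and 0.0569. LOC107604299 had 0.437. The deposited values of these genes are lowered by the scaling of partly assembled genes. With adjusted length, the 4 nearest genes had between 0.0627 and 0.766 in the *L. luscinia* ovary, so that LOC101813248 was still the highest, by a smaller margin. In the *L. luscinia* testis these 4 genes had an FPKM between 1.87 and 9.94 as deposited and between 5.66 and 157.5 with adjusted length, where LOC101822191 stood above the 71.9 of LOC101813248. Values at least 2-fold higher in testis in both species, and also in *L. luscinia* for both tissues, were found for 4 of the 41 genes (9.76%). These were LOC101813248, LOC101822191, LOC107603907 and LOC101813524.

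**Figure D4:**
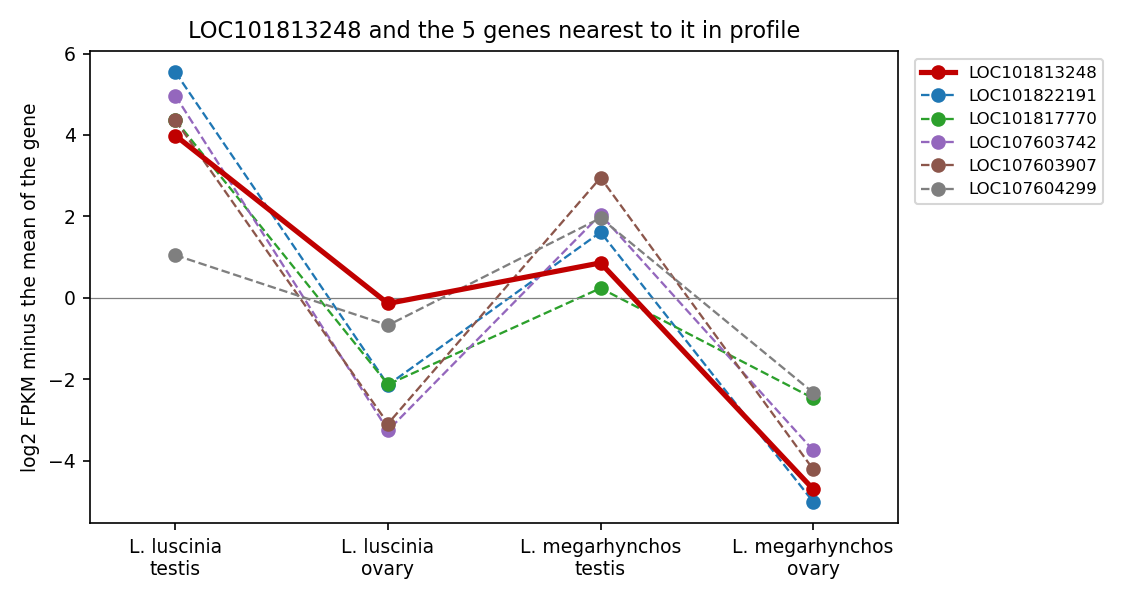
log2 FPKM minus the mean of each gene over the 4 libraries, for LOC101813248 (red, thick line) and the 5 genes nearest to it, chosen on these same values. All 6 genes are higher in testis than in ovary in each species, and LOC101813248 is highest of the 6 in the *L. luscinia* ovary.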

How the data were processed

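Stranded mRNA libraries were sequenced as 150 bp single-end reads. The authors trimmed these with Trimmomatic 0.39 and mapped them with STAR 2.7.9a against each species' somatic genome and GRC assembly together. They used unique alignments to exons that flycatcher coding sequences had identified on the GRC. Which program counted the reads, and whether by strand, is not given in the sources used here. FPKM values were deposited by the authors with decimal commas, in 1 column per library. Coding lengths and shares of genes on the GRC, from the study's supplement, served only as divisors to recover reads. All values above 0 of the 192 genes came out whole, within 0.01 reads or a relative 1e-05 (100% in each library). The recovery was tested on simulated data made with the same formula, so the formula itself was not tested. For LOC101813248, the deposited values gave the same smallest whole numbers without its own gene length. The library totals used for this came from the recovery, so it is not an independent check.

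The members, the gene lists and the rules for naming genes were chosen with earlier results of these data known. Genes named are the *hydin* like genes, listed cilium genes in the table, coding sequences within 10 of the members, neighbours in rank and the 5 nearest genes in pattern. Ratios of libraries have exact binomial intervals. PCR copies of reads are not independent molecules, so intervals and limits cover counting error only. No p-value was computed. The alternatives were pseudocounts, other scalings of the libraries, thresholds, filters and divisors. No reference genome was used, so no coordinates or sequences are given. Calculations were run in Python 3.11.15 with numpy 2.4.6, scipy 1.17.1 and pandas 2.3.3.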

Additional observations from a re-analysis of the deposited data

How the results depend on the processing

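LOC101813248 stayed higher in testis than in ovary, and higher in *L. luscinia* than in *L. megarhynchos*, under every pseudocount and scaling tried, while the sizes moved. With 1 added to each FPKM, the ratio of testis to ovary was 14.2 in *L. luscinia* and 7.86 in *L. megarhynchos*, and the ratio between the ovaries was 4.36. Scaled to the summed FPKM of each library, the tissue ratios were 8.87 in *L. luscinia* and 157 in *L. megarhynchos*, and the ratios between species were 5.42 in testes and 96.1 in ovaries. Scaled to the reads on the 192 genes, a choice made after seeing the data, these 4 ratios were 9.73, 160.8, 4.28 and 70.7. Scaled by the median ratio, the tissue ratio in *L. luscinia* was 11.9. The factor between the tissue ratios of the species was 0.0565 with summed FPKM and 0.0605 with the reads on the 192 genes, and it reversed to 1.81 with 1 added to each FPKM.

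LOC101814235 was above the threshold in 0 libraries with an FPKM of at least 1 or with at least 10 reads. The share of genes at least 4-fold higher was 28.4% for testis over ovary in *L. luscinia* and 11.1% for *L. luscinia* over *L. megarhynchos* ovary. Without a filter and with a pseudocount of 0.01, so that genes at 0 count, 2-fold higher values were found for 6.26% and 8.89% of genes in testis over ovary of *L. luscinia* and *L. megarhynchos*, and for 7.63% and 6.13% in *L. luscinia* over *L. megarhynchos* for testes and ovaries. By reads per coding length alone, LOC101813248 ranked 2 in the *L. luscinia* testis and 8 in the *L. megarhynchos* testis, and with the adjusted length 4 and 13. It held 29.4% and 3.32% of the summed FPKM in testis and ovary of *L. luscinia* and 5.43% in the *L. megarhynchos* testis. Without the 5 other genes with most reads, its shares of reads were 42.6% and 5.90% in *L. luscinia* and 7.90% and 0.0887% in *L. megarhynchos*. The other 52 of 86 alternative values stayed within counting error or within 1.5 times.

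No paired analysis was possible because each species and tissue has 1 library. With 1 bird per group no library could be left out. Precision for LOC101813248 was lowest in the *L. megarhynchos* ovary, where it had 12 reads.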

Other observations

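The chromosome that holds the *hydin* like genes in the flycatcher gave 27 of the 799 genes in the table, of which 15 were above 0 in any library and 2 in all 4. The second was CMTR2, an enzyme that methylates the mRNA cap, chosen after its values were seen. Its FPKM was 0.0349 in testis and 0.0498 in ovary of *L. luscinia*, and 0.293 in testis and 0.00720 in ovary of *L. megarhynchos*. LOC101813248 was the highest of the 27 genes in each library. LOC101821470, also chosen after its values were seen, had an FPKM of 1.38 in testis and 0.00614 in ovary of *L. luscinia*, and 0.132 in testis and 0 in ovary of *L. megarhynchos*.

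The values of marker genes of gonadal cells are those of reads assigned to the GRC assemblies and do not describe the A-chromosomal genes that serve as markers. Among those in the table, DMRT1, a regulator of the testis, had 0 reads in each testis and 15 in each ovary. SYCP1, a protein of the synaptonemal complex, had 0 reads in testis and 12 in ovary of *L. luscinia*, and 1 in testis and 54 in ovary of *L. megarhynchos*. SYCE3, of the same complex, had 2 reads in testis and 182 in ovary of *L. megarhynchos* and was not found on the *L. luscinia* GRC assembly. MSH4, a meiotic recombination factor, had an FPKM of 0.0371 in the *L. luscinia* testis and 0 elsewhere, and TDRD5, a germ granule protein, was listed at 0 throughout. Neither MSH4 nor TDRD5 is among the 192 genes that the study counts as GRC genes. The markers in the table did not share the direction of LOC101813248, which was higher in testis in both species, except MSH4 in *L. luscinia*.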
